A study of Mus musculus with 20 samples.

Results

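Dysplasia was examined in mouse gastric organoids that kept intact p53, the tumour suppressor encoded by Trp53. The comparison takes the 10 wild-type (WT) libraries of the 20 in the series, from 4 of its 8 organoid lines, and was defined by the labels for genotype and dysplasia and not by any measured value. Dysplastic WT lines 565 and 752 gave 3 libraries each, 6 in all, and non-dysplastic WT lines 300 and 1269 gave 2 each, 4 in all. All lines were on the BL/6 strain and were grown in the same kind of conditioned medium, and no drug or agent is named. As a second setting of the same contrast, dysplastic p53 KO lines 794 and 801 (knockout made in vivo, 3 libraries each) were set against non-dysplastic p53 KO lines 650 (made in vivo) and 1270 (made ex vivo), with 2 libraries each. Libraries with the same title number share every label and are repeats of 1 line, so their counts were summed and the line was the unit of replication. The labels give no animal, age or sex, and do not say what made the WT lines dysplastic.

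Gastric organoids are cultures of stomach epithelium that grow from stem cells in a gel of basement membrane proteins. Dysplasia is a disordered, neoplastic growth of that epithelium that precedes invasive cancer, and p53 normally halts or removes cells with damaged DNA or oncogenic stress. The stomach lining holds surface mucous pit cells, mucous neck cells, zymogen-secreting chief cells, acid-secreting parietal cells, endocrine cells and rare tuft cells, and Wnt signalling from neighbouring cells maintains the stem cells of its glands. Because the samples are bulk cultures, fewer cells of a type and less RNA per cell cannot be told apart.

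WT libraries held 9381176 to 13793068 counts, and the line sums 22217126 to 36880593. Levels are given as CPM, each gene's counts relative to the library total on a common scale adjusted by TMM. Trp53 was at 154 and 122 CPM in dysplastic WT lines 565 and 752 and at 112 and 161 CPM in non-dysplastic WT lines 300 and 1269, against 4.99 to 26.9 CPM in the 4 KO lines. Epcam, the epithelial surface adhesion protein, was at 776 and 849 CPM in the dysplastic lines and 715 and 581 CPM in non-dysplastic WT lines. Markers of gastric cell types were uneven: of pit cell genes Tff1 was at 0.203 to 0.429 CPM, Muc5ac at 2.5 to 8.54 CPM and Gkn1 at 35.6 to 160 CPM over the 4 WT lines, and of parietal proton pump subunits Atp4b was at 0 and Atp4a at 0.676 to 1.63 CPM. Of 20 immune cell markers 17 lay below 1 CPM in all 4 WT lines, as did 10 of 12 endothelial and 11 of 16 fibroblast markers. The last-numbered libraries of lines 565, 752 and 300 stood apart from their sisters, with log2 ratios to them that followed transcript length (Spearman's rho -0.333, -0.333 and -0.355 over 10113 genes, as a description). Line 300 has 2 libraries, so its ratio alone does not tell which of them is apart. The last-numbered libraries of KO lines 650, 794 and 801 were classed with these. Settings for the libraries that stood apart cover the WT and the KO ones. Other sister libraries differed too, with a rho of -0.247 for 752-1 against 752-2. For 1269-1 against 1269-2 rho was -0.0544 and the SD of the log2 ratio 0.459, beside 0.328 for 565-3. Line 300 had Xist at 0.572 CPM and the Y-linked Ddx3y at 44.8 CPM, whereas the other 3 WT lines had Xist at 450 CPM or more, so sex differed between the non-dysplastic lines, and its part in the results was not tested.

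The first question was how far the dysplastic lines differ from the others as whole profiles. Over 10560 genes the root mean square log2 difference was 0.303 between dysplastic lines 565 and 752, the smallest of the 6 WT pairs, and 0.622 between non-dysplastic lines 300 and 1269, the largest. The 4 mixed pairs lay between, from 0.37 (752 and 300) to 0.574 (752 and 1269). Line 1269 was the far member: Tff2, a mucous neck cell peptide, was at 208 and 828 CPM in dysplastic lines 565 and 752, 1120 CPM in non-dysplastic line 300 and 15.1 CPM in 1269, and the pepsinogen gene Pgc was at 74.4 CPM in 565, 40.9 CPM in 752, 334 CPM in 300 and 11.6 CPM in 1269. Counts of genes over 1 log2 unit apart were 151 for the dysplastic pair and 720 for the non-dysplastic pair.

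**Figure D1:**
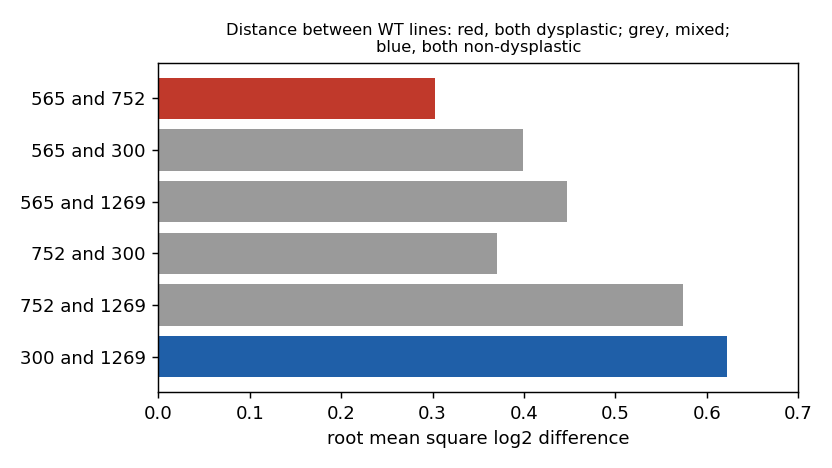
Root mean square log2 difference over 10560 genes (x axis) for each pair of WT lines (y axis). The pair of dysplastic lines (red, 0.303) is the closest and the pair of non-dysplastic lines (blue, 0.622) the farthest, with the 4 mixed pairs (grey) between.

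Gene by gene, edgeR's quasi-likelihood test with Benjamini-Hochberg adjustment called 0 of 13476 genes (0%) between dysplastic and non-dysplastic WT lines, and its adjusted p was 1 for each gene. At an unadjusted p under 0.05 it held 156 genes (1.16%), 110 higher and 46 lower in dysplastic lines. Limma-voom on the libraries, with a correlation within lines, called 0. DESeq2 on the same line sums called 4 genes, namely Dclk1, Enpp2 and Wnt5a, which were higher in dysplastic lines, and Psca, which was lower. Over the 26 alternatives the adjusted p of these genes ran up to 1, from 0.000169 for Dclk1 and 0.0246 for each of the others. Separate animals are not named for the lines, so a p-value here speaks for the spread among these 4 WT and 4 KO cultures, part of which may be technical.

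Dclk1 encodes doublecortin-like kinase 1, a microtubule-associated kinase known in the stomach and gut as a marker of tuft cells. It had from 10.7 to 21.5 CPM, median 18.99, in the 6 dysplastic libraries, against 5.24 and 2.37 CPM in the libraries of line 300 and 3.64 and 1.90 CPM in those of line 1269. All 6 dysplastic libraries lay above all 4 others, and within lines 565, 752 and 300 the library that stood apart was the lowest. By line it averaged 18.5 ± 0.734 CPM in the dysplastic lines and 3.32 ± 0.765 CPM in non-dysplastic lines (SD, n = 2 each). The fitted log2 fold change was 2.48 ± 0.42 (SE), with a DESeq2 adjusted p of 0.000169, beside 2.90 ± 0.42 in KO lines. Leaving out any 1 line or WT library gave 2.23 to 2.82.

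Tuft cell markers as a list lay on both sides of 0 in WT lines. Of 9 tested members, Dclk1 included, 5 were above and 4 below 0, with a median log2 difference of 0.09, beside -0.035 over all genes tested. In KO lines 8 of the 9 were above 0, with a median of 1.26, beside 0.016 over all genes tested. Pou2f3, the tuft cell transcription factor, was at 0.261 and 0.247 CPM in the dysplastic lines and 0.238 and 0.238 CPM in non-dysplastic lines, and Trpm5, a tuft cell ion channel, was at 0.581 and 0.411 CPM against 0.906 and 0.517 CPM (both chosen after their values were seen).

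The Dclk1 upstream sequence is shown because this gene had the smallest p of the comparison in edgeR and in DESeq2, and the letters searched are those bound by TCF/LEF factors, the DNA-binding partners of Wnt signalling. Windows from 250 bases before to 50 after the 2 annotated starts are given from RefSeq on build GRCm38.p6, plus strand; the counts were made on mm9, so these coordinates are not those of the counts. Capitals mark CTTTGAT or its reverse ATCAAAG.
Dclk1 upstream start, chr3:55242114-55242413: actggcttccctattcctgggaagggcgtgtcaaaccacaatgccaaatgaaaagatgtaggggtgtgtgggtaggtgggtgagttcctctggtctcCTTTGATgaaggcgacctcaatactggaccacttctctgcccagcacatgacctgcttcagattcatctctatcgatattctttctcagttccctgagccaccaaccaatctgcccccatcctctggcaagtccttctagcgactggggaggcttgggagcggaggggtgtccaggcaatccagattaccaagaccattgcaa
Dclk1 downstream start, chr3:55461478-55461777: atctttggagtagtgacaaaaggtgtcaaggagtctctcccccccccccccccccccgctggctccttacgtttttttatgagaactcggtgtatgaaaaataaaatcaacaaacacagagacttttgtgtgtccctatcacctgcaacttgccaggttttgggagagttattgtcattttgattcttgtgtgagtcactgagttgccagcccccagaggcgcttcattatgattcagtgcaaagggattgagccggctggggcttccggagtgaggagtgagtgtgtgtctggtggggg
The upstream window held 1 match and the downstream window 0. For 13 of the 22 genes chosen by rule, described further on, windows were searched, 18 windows in all, and 2 held the letters (the other in Mvb12b). Windows of the remaining chosen genes were absent or left out. Of all 32851 windows 1225 (3.73%) held the letters, but that set was not restricted in the same way, so the shares are not compared. A match is a description of letters, and gene counts do not tell which start was used.

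Wnt5a, a secreted ligand mostly of the branch that does not act through beta-catenin, was also called by DESeq2. It had 2.73 to 5.27 CPM, median 3.69, in dysplastic libraries, against 0.828 and 0.593 CPM in line 300 and 1.47 and 0.579 CPM in line 1269. The groups did not overlap. The log2 fold change was 2.14 ± 0.42 (SE), with an adjusted p of 0.0246 in DESeq2, beside 1.39 ± 0.40 in KO lines. Enpp2, which encodes autotaxin, the secreted enzyme that makes lysophosphatidic acid, had 1.87 to 5.09 CPM, median 3.58, in dysplastic libraries, against 0.736, 0.395, 0.31 and 0.165 CPM in the libraries 300-1, 300-2, 1269-1 and 1269-2. Its log2 fold change was 3.16 ± 0.72 (SE), with the same DESeq2 adjusted p of 0.0246, beside 4.75 ± 0.68 in KO lines. Enpp2 was named after its values were seen because its level lay under the minimum for named genes.

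Psca, a surface protein of gastric pit cells first described as prostate stem cell antigen, was the gene that DESeq2 called lower. It had 68.6 to 108 CPM, median 87.4, in dysplastic libraries, against 212 and 323 CPM in line 300 and 227 and 299 CPM in line 1269. Every dysplastic library lay below every non-dysplastic one. The line means were 87.6 ± 16.3 CPM in the dysplastic lines and 263 ± 4.13 CPM in non-dysplastic lines (SD, n = 2 each). The log2 fold change was -1.59 ± 0.33 (SE), with a DESeq2 adjusted p of 0.0246, beside -1.52 ± 0.33 in KO lines. In the pit cell list, which holds Psca, 5 of 16 tested members were above and 11 below 0, with a median of -0.32 that became 0.27 without line 300, and 0 were called in either direction.

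Because edgeR called 0 genes, a plain count was used beside it, namely genes with all 6 dysplastic libraries on one side of all 4 non-dysplastic ones. There were 265 such genes (1.97% of those tested) with the dysplastic libraries above and 88 (0.653%) below. With a log2 fold change of at least 1 in size they numbered 182 (1.35%) and 35 (0.26%). Of these 50 and 10 had a mean log2 CPM above 2, and 35 and 8 were below 1 CPM in both groups, so a share of them was weakly expressed. The count was 331 in place of 217 without the libraries that stood apart, where fewer WT libraries have to be separated. That setting also left out KO libraries 650-2, 794-3 and 801-3, so the filter, scaling and fit changed too. Without library 1269-2 the count was 349. Of the 182, 8 had 0 counts in the non-dysplastic libraries; the median log2 fold change of the 182 was 1.89 as fitted and 1.87 with those at the bound that 3 counts over the group allow, and that of the 35 was -1.59.

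The KO lines give the same contrast without sharing a library, but with no animals named, an origin shared with WT lines cannot be told. As in WT, 1 of their non-dysplastic lines was male, with line 650 at 0.651 CPM of Xist and 23.6 CPM of Ddx3y. The other 3 KO lines had Xist at 317 CPM or more, so both contrasts share this imbalance of sex. Both also hold libraries classed as standing apart, in KO the last-numbered ones of dysplastic lines 794 and 801 and non-dysplastic line 650. The part of these shared features in the agreement between the contrasts was not tested. Of the 182 genes 164 (90.1%) were also above 0 between dysplastic and non-dysplastic KO lines, where 52.3% of all genes tested were, and 30 (16.5%) had all 6 dysplastic KO libraries above all 4 non-dysplastic ones, where 2.52% of all genes did. Of the 35 genes 31 (88.6%) were also below 0, and 4 (11.4%) were separated downward in the KO libraries, where 1.42% of all genes were. Of all 217, 1 gene, Zfp773, was separated the opposite way. The medians in KO lines were 1.11 and -0.81. EdgeR called 0 genes (0%) in the KO contrast, with 1016 at an unadjusted p under 0.05, while DESeq2 called 197 and limma-voom 239. The interaction of dysplasia with genotype asks whether the difference depends on the genotype of the lines. It had 0 calls (0%) in edgeR, DESeq2 and limma-voom, with 241 genes at an unadjusted p under 0.05 in edgeR. Non-dysplastic line 1270 was knocked out ex vivo and lines 650, 794 and 801 in vivo. The KO contrast and the interaction therefore also hold the route of knockout, whose part was not tested.

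**Figure D2:**
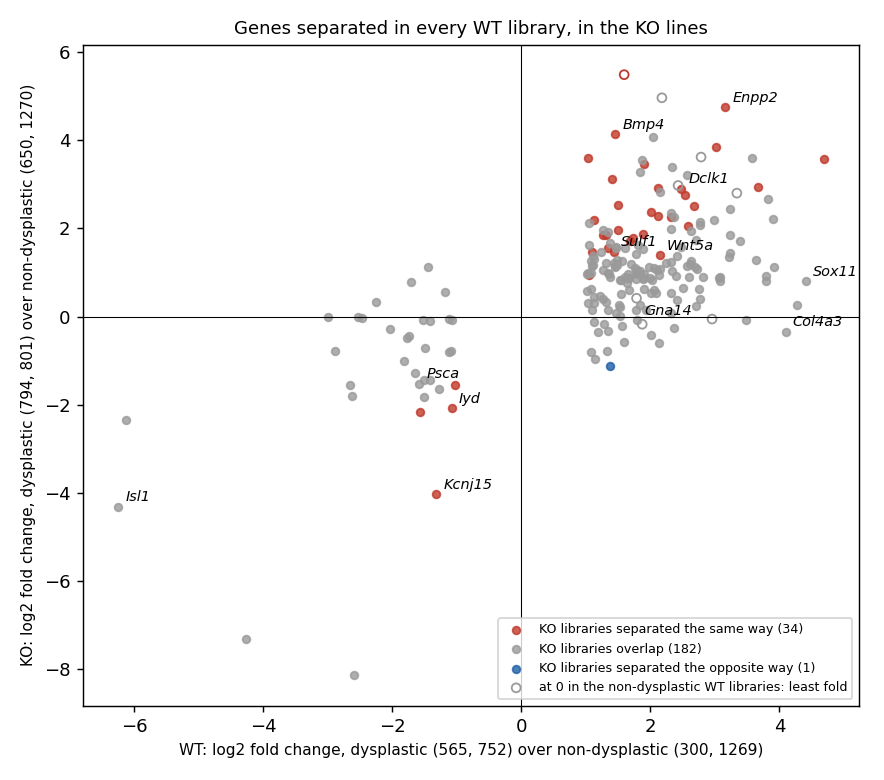
Log2 fold change between dysplastic and non-dysplastic lines in WT (x axis) and in KO (y axis) for the 217 genes separated in every WT library; colours give the state of the KO libraries, and open circles are the 8 genes at 0 in the non-dysplastic WT libraries, drawn at the least fold that 3 counts allow. Most points lie in the upper right and lower left, and 34 are also separated in the KO libraries.

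Genes with a mean log2 CPM above 2, an unadjusted p under 0.05 in edgeR and separated libraries numbered 19 higher and 7 lower, of which 15 and 7 were chosen by the size of their fold change. Of the 19, 18 were also above 0 in KO lines and 9 were separated there, and of the 7 all were also below 0 and 3 were separated. Gna14, a G protein alpha subunit of the Gq family, was the exception, with a log2 fold change of 1.79 ± 0.70 (SE) in WT and -0.08 ± 0.67 in KO lines.

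Several of the higher genes encode proteins that act outside the cell. Sulf1, an extracellular enzyme that trims sulfate groups from heparan sulfate, had 32.2 to 60.9 CPM, median 51.9, in dysplastic libraries, against 24.4 and 13.7 CPM in line 300 and 19.9 and 15.7 CPM in line 1269. Its groups did not overlap, and the log2 fold change was 1.44 ± 0.35 (SE) in WT and 1.47 ± 0.35 in KO lines. Olfml2b, a secreted olfactomedin-domain protein, had 7.60 to 17.5 CPM, median 12.1, against 4.51 and 3.26 CPM in line 300 and 2.25 and 3.39 CPM in line 1269. Its log2 fold changes were 1.89 ± 0.56 (SE) in WT and 1.88 ± 0.55 in KO lines. Bmp1, the protease that matures procollagens, averaged 15.2 ± 0.0398 CPM in the dysplastic lines and 6.99 ± 2.20 CPM in non-dysplastic lines (SD, n = 2 each). Scara3, a scavenger receptor family member, was the most abundant of the higher genes chosen, at 195 to 294 CPM in the dysplastic libraries and 100.3 to 142 CPM in non-dysplastic libraries.

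Pdlim4, an actin-associated adaptor, had 8.49 to 21.6 CPM, median 14.3, in dysplastic libraries, against 3.04 and 4.64 CPM in line 300 and 4.49 and 1.41 CPM in line 1269. Its log2 fold changes were 2.11 ± 0.60 (SE) in WT and 2.28 ± 0.60 in KO lines, with no overlap of libraries in either. Signalling and trafficking genes made up most of the others: Itpr2, a calcium release channel opened by inositol trisphosphate, with a log2 fold change of 1.60, Mvb12b, a subunit of an endosomal sorting complex, with 1.10, and Rab15, an endosomal GTPase, with 0.85. The zinc finger genes Zfp532 and Zfp239 had 1.35 and 0.98.

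The lower genes named other than Psca were transporters, enzymes and membrane proteins of epithelial cells. Slc16a5, of the monocarboxylate transporter family, had 4.92 to 7.45 CPM, median 6.15, in dysplastic libraries, against 17.5 and 18.6 CPM in line 300 and 11.6 and 12.7 CPM in line 1269. Iyd, which recovers iodide from iodinated tyrosines, had 16.1 to 30.5 CPM, median 20.5, against 40.5 and 61.1 CPM in line 300 and 47.3 and 34.5 CPM in line 1269. Neither gene overlapped, and their log2 fold changes were -1.28 ± 0.36 and -1.08 ± 0.37 (SE) in WT and -1.65 ± 0.37 and -2.08 ± 0.38 in KO lines. Sytl2, a partner of Rab27 in vesicle docking, averaged 68.4 ± 10.3 CPM in the dysplastic lines and 139.9 ± 11.2 CPM in non-dysplastic lines (SD, n = 2 each). Ptprh, a receptor phosphatase, Nt5e, the ectoenzyme CD73 that makes adenosine, and Hsd17b11, a lipid droplet dehydrogenase, had smaller log2 fold changes of -0.66, -0.58 and -0.58.

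In the list of Wnt targets and feedback genes, members lay on both sides of 0. Of 27 tested members 15 were above and 12 below 0, with a median of 0.04 (0.002 with the member at 0 set to its bound), 5 were separated upward, where 1.97% of all genes tested were, and 0 were called in either direction. Notum, a secreted enzyme that inactivates Wnt ligands, had 7.01 to 15.2 CPM, median 11.7, in dysplastic libraries, against 2.76 and 3.95 CPM in line 300 and 6.27 and 3.39 CPM in line 1269. The groups did not overlap, and the log2 fold change was 1.48 ± 0.59 (SE). Tcf7l1, a TCF factor that mostly represses, averaged 4.56 ± 0.991 CPM in the dysplastic lines and 1.67 ± 0.399 CPM in non-dysplastic lines (SD, n = 2 each), and Dact2, a Dishevelled-binding protein outside the list, averaged 10.3 ± 2.87 CPM in dysplastic lines, against 4.25 ± 1.29 CPM in non-dysplastic lines. Axin2 and Lgr5, standard targets of beta-catenin, overlapped: Axin2 was at 32.3 and 10.996 CPM in the dysplastic lines and 17.2 and 50.8 CPM in non-dysplastic lines, and Lgr5 at 10.9 and 8.06 CPM against 4.91 and 15.5 CPM (both chosen after their values were seen). Leaving out line 300 gave a median of -0.22, line 565 a median of 0 and line 1269 a median of 0.61.

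The medians of the contractile and mesenchymal lists lay farther above 0 than those of the other lists plotted, with 0 called in either list. In the smooth muscle list 7 of 9 tested members were above 0, with a median of 1.36 (0.72 without line 752), and 4 were separated upward, where 1.97% of all genes tested were. Acta2, smooth muscle actin, had 17.4 to 92.4 CPM, median 36.5, in dysplastic libraries, against 3.59 and 4.84 CPM in line 300 and 1.24 and 2.07 CPM in line 1269. The groups did not overlap, but the dysplastic lines differed, with line 565 at 21.6 and line 752 at 58.2 CPM, and the log2 fold change was 3.79 ± 1.97 (SE). Tagln, an actin-binding protein of smooth muscle, averaged 31.0 ± 29.3 CPM in the dysplastic lines and 2.27 ± 2.65 CPM in non-dysplastic lines (SD, n = 2 each), a difference within the spread of the dysplastic lines. Myl9, a myosin light chain, had 2.15 to 6.45 CPM in dysplastic libraries, against 0.296 to 0.661 CPM in non-dysplastic ones.

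Some genes of the smooth muscle and fibroblast lists were near 0. Of 12 smooth muscle markers 4, namely Actg2, Mylk, Lmod1 and Synpo2, lay below 1 CPM in all 4 WT lines, and the others did not. The summed level of the whole smooth muscle list was 734 and 783 CPM in the dysplastic lines and 632 and 642 CPM in non-dysplastic lines, and that of the 16 fibroblast markers 108 and 96.5 CPM against 90.1 and 109 CPM, with Pdgfra, Pdgfrb, Dcn and Lum below 1 CPM in all 4. In KO lines Acta2 differed more between lines of a class than between classes, and it was at 0.951 and 104 CPM in dysplastic lines 794 and 801, and 55.4 and 4.95 CPM in non-dysplastic lines 650 and 1270.

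In the list for mesenchymal transition, 10 of 12 tested members were above 0, with a median of 0.82 that was 0.54 without the libraries that stood apart and 0.39 without line 565. Itga5, the alpha subunit of the fibronectin receptor, had 19.9 to 26.8 CPM, median 24.3, in dysplastic libraries, against 10.5 and 7.21 CPM in line 300 and 9.30 and 13.7 CPM in line 1269. Mmp14, a membrane-bound collagenase, had 171 to 239 CPM, median 212, against 107 and 68.7 CPM in line 300 and 96.4 and 170 CPM in line 1269, so that library 1269-2 came close to the lowest dysplastic one. Fn1, fibronectin itself, was at 922 and 859 CPM in the dysplastic lines and 429 and 401 CPM in non-dysplastic lines, with a log2 fold change of 1.10 ± 0.72 (SE) and overlapping libraries (chosen after its values were seen). Of the classical markers, the intermediate filament gene Vim was at 2.09 and 2.11 CPM in the dysplastic lines and 2.00 and 2.31 CPM in non-dysplastic lines, and E-cadherin (Cdh1) at 1830 and 1790 CPM against 1650 and 1820 CPM.

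Among 35 tested collagens, laminins and integrins 20 were above 0, where 42.7% of all genes tested were, with a median of 0.06. Of the 35, 5 were separated upward, where 1.97% of all genes tested were. The median was -0.10 without line 300. Itga6, an integrin of the basal surface, was at 485 and 497 CPM in the dysplastic lines and 482 and 521 CPM in non-dysplastic lines (chosen after its values were seen). Of the separated members, Col7a1, the anchoring fibril collagen, averaged 4.14 ± 0.350 CPM in the dysplastic lines and 0.636 ± 0.450 CPM in non-dysplastic lines, Col4a3, a basement membrane collagen, 1.91 ± 0.979 CPM against 0.107 ± 0.0169 CPM, and Itgb8, an integrin that activates latent TGF-beta, 0.568 ± 0.183 CPM against 0.0835 ± 0.0506 CPM (SD, n = 2 each). Of TGF-beta family ligands, Inhba averaged 12.2 ± 0.00309 CPM in the dysplastic lines and 4.18 ± 0.444 CPM in non-dysplastic lines, and Bmp4 2.21 ± 0.289 CPM against 0.799 ± 0.388 CPM. Inhba libraries ranged from 0.93 to 8.35 CPM in non-dysplastic lines, more widely than their line sums show.

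**Figure D3:**
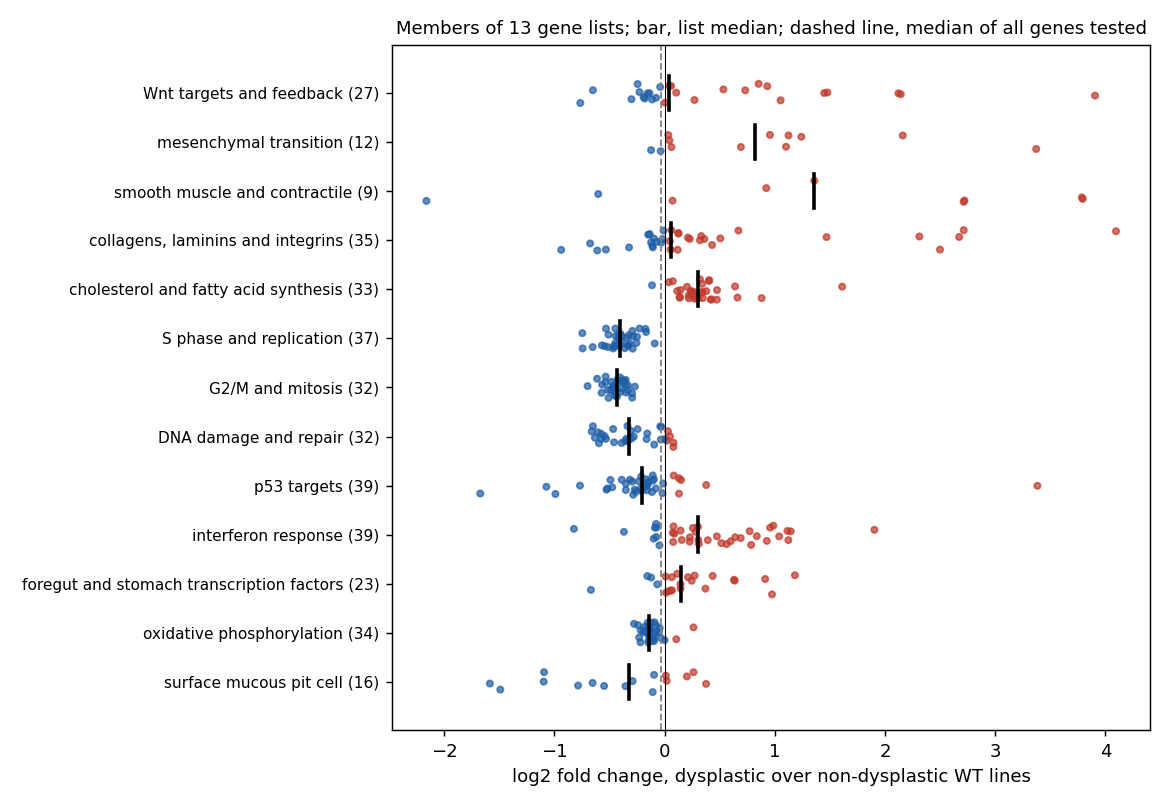
Log2 fold change between dysplastic and non-dysplastic WT lines (x axis) of each tested member of 13 gene lists (rows, number of members in brackets); red is above and blue below 0, black bars are list medians and the dashed line is the median of all genes tested. The contractile and mesenchymal medians lie farthest right (1.36 and 0.82) and the cell-cycle medians farthest left.

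Among transcription factors of the foregut 19 of 23 tested members were above 0, with 0 called and a median of 0.14 (0.026 without line 1269, 0.056 without line 752), where 42.7% of all genes tested lay above 0. Sox2, which specifies foregut epithelium and marks gastric stem cells, had 32.9 to 42.4 CPM, median 36.5, in dysplastic libraries, against 25.8 and 22.3 CPM in line 300 and 31.5 and 15.4 CPM in line 1269. The groups did not overlap, and the highest non-dysplastic library came close to the lowest dysplastic one. The log2 fold change was 0.63 ± 0.27 (SE) in WT and -0.53 ± 0.27 in KO lines. The difference of these effects was -1.16 ± 0.38 (SE), with an edgeR adjusted p of 1.00. Sox11, a factor of fetal tissues, averaged 2.87 ± 1.30 CPM in the dysplastic lines and 0.131 ± 0.0169 CPM in non-dysplastic lines (SD, n = 2 each), and Sox4 169.8 ± 19.4 CPM against 110.2 ± 9.98 CPM.

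List medians of proliferation genes lay below 0, and these medians depended on non-dysplastic line 1269. All 37 tested S phase genes and all 32 G2/M genes were below 0, with medians of -0.40 and -0.43, as were 27 of 32 DNA repair genes (median -0.32), and 0 were called. Mki67, a marker of cycling cells, had 154 to 484 CPM, median 312, in dysplastic libraries, against 415 and 186 CPM in line 300 and 838 and 468 CPM in line 1269. The groups overlapped, with line 1269 highest. The mean log2(CPM + 1) of the S phase list was 5.82 in line 565 and 5.32 in line 752, against 5.65 in line 300 and 6.24 in line 1269. Without line 1269 the medians were -0.016 for S phase, 0.078 for G2/M and 0.069 for DNA repair. Mcm5, Pcna and Top2a, chosen like Mki67 after their values were seen, also overlapped between groups.

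The p53 target list also depended on line 1269. Of 39 tested members 6 were above and 33 below 0, with a median of -0.21, 0 were called, and the median was 0.17 without line 1269. The line means were 5.68 and 5.46 in dysplastic lines 565 and 752, against 5.40 in line 300 and 6.08 in line 1269, on the log2(CPM + 1) scale. Cdkn1a, the p21 cell-cycle inhibitor, was at 287 and 275 CPM in the dysplastic lines and 224 and 425 CPM in non-dysplastic lines, and Mdm2, the ligase that degrades p53, at 118 and 102 CPM against 104 and 205 CPM (both chosen after their values were seen). Of the 39, 1 was separated upward and 0 downward, where 1.97% and 0.653% of all genes tested were. That member was Dram1, a p53-induced autophagy gene of low level. It was at 0.467 to 3.17 CPM in the dysplastic libraries and 0.0988 to 0.248 CPM in non-dysplastic libraries.

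**Figure D4:**
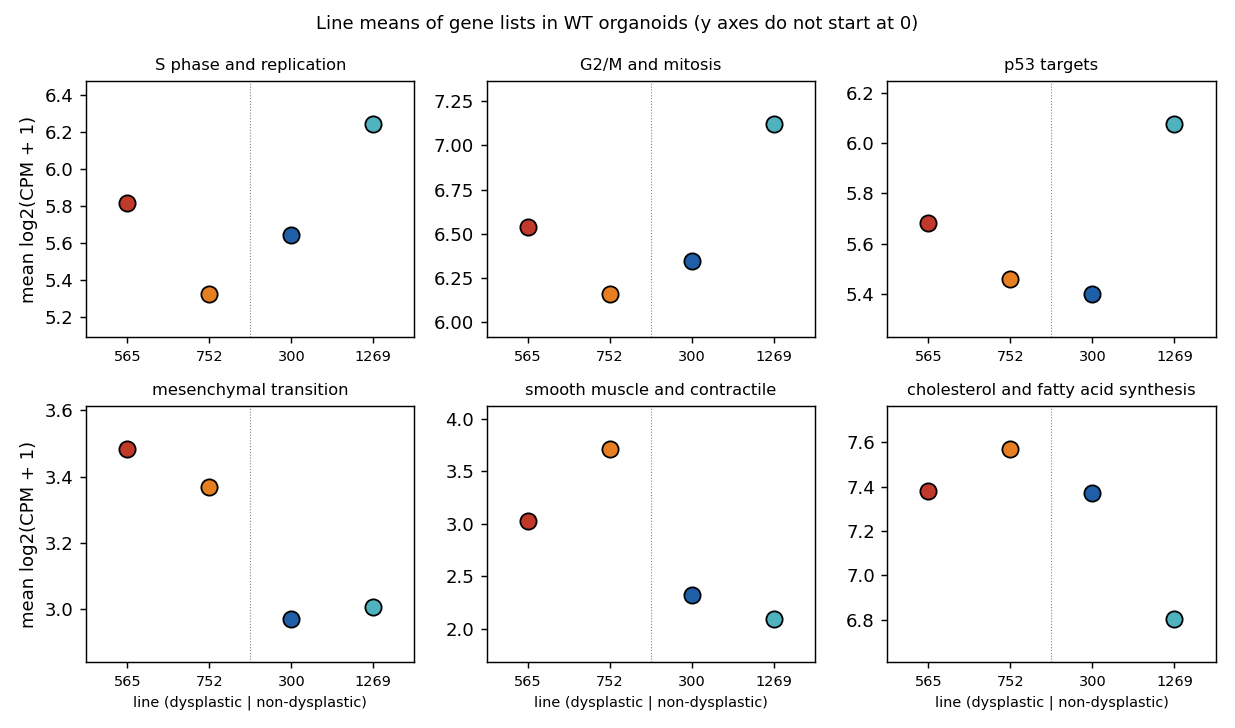
Mean log2(CPM + 1) of the tested members of 6 gene lists (y axes with their own ranges, not from 0) in each WT line (x axis, dysplastic left of the dotted line). Line 1269 is highest for S phase, G2/M and p53 targets and lowest for cholesterol and fatty acid synthesis, while both dysplastic lines lie above both others for the mesenchymal and contractile lists.

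In the list of sterol and fatty acid synthesis 32 of 33 tested members were above 0, with a median of 0.31 and 0 called; the median was 0.15 without line 1269 and 0.65 without line 300. Sqle, squalene epoxidase, was at 286 and 327 CPM in the dysplastic lines and 288 and 196 CPM in non-dysplastic lines (chosen after its values were seen). Interferon response genes were above 0 in 31 of 39 cases, with a median of 0.31 (0.59 without line 1269) and 0 called. Ifit1, an interferon-induced RNA-binding protein, averaged 1.10 ± 0.205 CPM in the dysplastic lines and 0.533 ± 0.146 CPM in non-dysplastic lines (SD, n = 2 each). In KO lines its log2 fold change was 3.597 ± 0.50 (SE), beside 1.04 ± 0.49 in WT, and the adjusted p of the difference in edgeR was 1.00. Subunits of oxidative phosphorylation were below 0 in 32 of 34 cases, with a median of -0.14 that was 0.20 without line 300.

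In the lists of differentiated gastric cells, 1 of 10 tested chief cell genes and 1 of 9 tuft cell genes were separated upward. Downward it was 1 of 16 pit cell genes and 1 of 15 parietal genes, and 0 of 17 mucous neck genes were separated. Of all genes tested 1.97% were separated upward and 0.653% downward. Kcnj15, a potassium channel of parietal cells, had 18.9 to 32.5 CPM, median 24.2, in dysplastic libraries, against 73.8 and 47.2 CPM in line 300 and 84.4 and 49.8 CPM in line 1269. The groups did not overlap, and its log2 fold change was -1.32 ± 1.28 (SE) in WT and -4.02 ± 1.43 in KO lines, while 7 of 15 tested parietal members were above and 8 below 0. In the endocrine list 10 of 12 tested members were above 0, where 42.7% of all genes tested were, with a median of 0.46 and 0 called. Of the 12, 2 were separated upward and 1 downward, where 1.97% and 0.653% of all genes tested were. Isl1, a transcription factor of endocrine cells, was at 0 to 0.362 CPM in dysplastic libraries, against 2.39 and 1.88 CPM in line 300 and 21.8 and 13.5 CPM in line 1269. Tph1, the serotonin-making enzyme, stood the other way, at 0.566 to 1.03 CPM in dysplastic libraries and 0 to 0.0988 CPM in non-dysplastic ones, as did Chgb, chromogranin B, at 1.94 to 6.27 CPM against 0 to 1.19 CPM. Of chief cell genes 5 were above and 5 below 0, and of mucous neck genes 9 and 8.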

How the data were processed

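Gene counts were analysed from 20 RNA-seq libraries of mouse gastric organoids; the members and the gene lists were chosen with earlier results of these data known. The deposited table holds unnormalized whole-number read counts for each gene symbol, as the authors made them. Per the labels' protocols, libraries were made with an mRNA kit from total RNA. The submitters' processing notes name STAR 2.5, bcl2fastq and build mm9. Annotation, gene counter and strand setting were not given in the sources used here, and so reads of overlapping or antisense genes cannot be told apart.

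Counts were summed per line and filtered with filterByExpr, which kept 13476 of 24047 genes. They were scaled by TMM and fitted in R 4.3.3 with edgeR 4.0.16, with 1 mean per combination of genotype and dysplasia over 8 lines and 4 residual degrees of freedom. Tests were robust quasi-likelihood F tests, adjusted by Benjamini-Hochberg and called at 0.05. Each SE was obtained by dividing the log2 fold change by the root of its F. Alternatives were DESeq2 1.42.0 on line sums and limma 3.58.1 (voom) on libraries with lines as correlated blocks, other scaling, no filter, and leaving out libraries or lines. The edgeR test was tested on simulated data. Library values are TMM-scaled CPM over the 20 libraries, and mean ± SD is over line sums. No pair of WT libraries of a line agreed within sampling noise (chi-square per degree of freedom 8.68 to 105). WT libraries held 9381176 to 13793068 counts, which limits the precision of genes near 1 CPM.

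Named genes were, per direction, up to 15 with the largest log2 fold change among those with a mean log2 CPM above 2, an unadjusted p under 0.05 and separated libraries (called genes would have come first), plus up to 3 separated members of each list by smallest p; some of these are not reported here. Of 1234 list entries in 51 lists, 1226 were in the table and 1043 were tested. Lists were described by counts and medians only. Promoter sequences are RefSeq's.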

Additional observations from a re-analysis of the deposited data

Results flagged for a closer look

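Of 120 groups of libraries of the named genes, 7 had an end library whose gap to the next, divided by the range of the group, passed Dixon's 95% critical value. Chance gives about 1 in 20 for independent values. Each group here pools repeats of different lines, and most of the genes were chosen for separated libraries, so that rate is only a rough guide. In dysplastic WT libraries the ratio was 0.638 for Nt5e, where library 752-1 was lowest at 112 CPM and the next at 138 CPM. It was 0.698 for Isl1, with 752-1 highest at 0.362 CPM, 0.674 for Myl9, with 752-3 highest at 6.45 CPM, and 0.652 for Hdac9, a histone deacetylase, with 752-3 highest at 1.31 CPM. In non-dysplastic WT libraries it was 0.881 for Esam, a junction protein, with 1269-2 highest at 25.4 CPM, and 0.872 for Col7a1, with 300-2 highest at 1.48 CPM. It was 0.916 for Hdac9, with 1269-2 highest at 0.331 CPM. Libraries 752-3 and 300-2 are among those that stood apart from their sisters; their part in these values was not tested.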

How the results depend on the processing

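The count of genes called between dysplastic and non-dysplastic WT lines was 0 in edgeR under RLE scaling, without a filter, with the 4 WT lines alone, without the libraries that stood apart and with any 1 line or library left out, and 0 in limma-voom, also with a term for those libraries; DESeq2 called 4. The interaction had 0 calls under each of these alternatives that applies to it. Between KO lines edgeR called 0, DESeq2 197, and limma-voom 239, 139 with the term and 140 with the replicate block. Separated genes numbered 331 without the libraries that stood apart, 353 with no fold threshold, and 221 to 349 with 1 library left out.

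With library number as a replicate block, limma-voom called 0 genes in WT and 0 for the interaction. Deviations of same-numbered WT libraries from the mean of their group, dysplastic or non-dysplastic, correlated between -0.4 and 0.29. These deviations also hold the difference between the lines of a group. They therefore cannot tell whether libraries with the same number were prepared together. Trp53 had a log2 fold change of -0.0038 in limma-voom, -0.0057 with the term, and -0.22 to 0.33 with 1 line or library left out. In the same way Mki67 ran from -1.06 to 0.074 and Top2a from -0.94 to 0.14. With 1 line left out, list medians ran from -0.22 to 0.61 (0 without line 565) for Wnt, -0.10 to 0.37 for collagens, laminins and integrins, -0.67 to -0.016 for S phase, -0.76 to 0.078 for G2/M, -0.56 to 0.069 for DNA repair, -0.55 to 0.17 for p53 targets, -0.35 to 0.20 for oxidative phosphorylation and -0.76 to 0.27 for pit cells. The cause was not tested beyond the line left out.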

Other observations

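Other lists had separated members too, with 0 called in each. Separated upward were 2 of 20 tested claudin and tight junction genes, 1 of 8 fibroblast genes, 3 of 31 matrix proteases and inhibitors and 1 of 29 mucin glycosylation genes. Downward it was 1 of 16 Notch genes and 1 of 6 endothelial genes. Of all genes tested 1.97% were separated upward and 0.653% downward. Cldn6, a claudin of embryonic epithelium, had 32 counts over the dysplastic WT libraries and 0 over the non-dysplastic ones, at least 6.89-fold higher at a floor of 3 counts over the group. Thy1, a marker of fibroblasts and T cells, had 17 counts against 0, at least 3.66-fold higher. Timp3, a metalloprotease inhibitor, averaged 13.2 ± 2.89 CPM in the dysplastic lines and 3.53 ± 0.466 CPM in non-dysplastic lines (SD, n = 2 each). St6gal1, which adds sialic acid to glycans, averaged 19.1 ± 1.84 CPM in dysplastic lines, against 7.54 ± 1.82 CPM in non-dysplastic lines, and was also separated in KO libraries.

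Nrarp, a feedback inhibitor of Notch signalling, averaged 11.02 ± 1.47 CPM in the dysplastic lines and 17.8 ± 4.61 CPM in non-dysplastic WT lines, with a log2 fold change of -0.69 ± 0.49 (SE) in WT and 1.13 ± 0.49 in KO lines. Esam averaged 11.8 ± 1.52 CPM in dysplastic WT lines, against 17.99 ± 3.72 CPM in non-dysplastic WT lines, while in KO lines it was at 167 and 7.34 CPM in dysplastic lines 794 and 801, and 12.1 and 11.3 CPM in non-dysplastic lines 650 and 1270. Both differences between the WT and KO effects had an edgeR adjusted p of 1.00.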
